A study of Arabidopsis thaliana and Arabidopsis thaliana x Arabidopsis arenosa and Arabidopsis arenosa with 18 samples.

Results

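Seeds of an interspecific cross that the series describes as incompatible were compared with seeds of a cross within the maternal line. In the hybrid cross, Arabidopsis thaliana Col-0 mothers were pollinated by Arabidopsis arenosa, and these seeds are called Col hybrid. In the control cross, the same kind of mother was pollinated by Col-0, and these seeds are called Col control. The comparison used 4 of the 14 libraries in the deposited gene table, 2 per group, chosen by their column titles and not by any measured value. It covered all 33602 loci of the table, of which 20552 held enough reads to be tested.

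The mothers of both groups were diploid and hemizygous for a male-sterility construct, marked as ColA9 in the titles of the control, so flowers were pollinated by hand without emasculation. The father of the hybrids was diploid A. arenosa var. Strecno, and 1 plant served for all crosses, so the paternal genome of these hybrids is that of 1 individual. Plants grew in long days, and whole seeds were taken 3 days after pollination, which mixes embryo, endosperm and maternal seed coat. The other seed groups were a C24 control and a C24 hybrid, made in the same way with a mother of the accession C24, and an A. arenosa control. Each Col control column added up 2 records, and 1 record of each pair had a title ending in the word single, whereas each Col hybrid column held 1 record. The sources used here do not explain that word, and this difference in library make-up cannot be told apart from the cross. Nothing in the labels says that replicates came from separate plants, so the p-values reflect the spread among these libraries alone, and that spread may be technical.

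In a seed of A. thaliana the tissues differ in genetic make-up. The embryo carries a maternal and a paternal genome, the endosperm that feeds it carries an extra maternal dose, and the seed coat is purely maternal. Crosses between related species often fail in the endosperm, whose early growth without cell walls and later cellularisation depend on the balance of maternal and paternal activity. In such crosses the reads of paternal alleles come from another species, and here they were counted on the A. thaliana genome.

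Levels are CPM, the counts of a locus relative to the library total, with TMM scaling, and pairs of values are given for replicate 1 and then replicate 2. Log2 fold changes are Col hybrid minus Col control. Adjusted p-values come from edgeR's quasi-likelihood test with Benjamini-Hochberg adjustment over all loci tested. The value after ± is an approximate standard error (SE), the absolute fitted value divided by the square root of that test's F statistic. At loci with few reads it can understate the error. A locus is called when its adjusted p is below 0.05. Statements that groups did not overlap only describe the printed values. The share of all tested loci without overlap was not computed. The 4 libraries held between 8931520 and 16149496 reads in loci, so 3 reads, the floor used for a group without reads, correspond to between 0.179 and 0.354 CPM. Intervals and floors cover counting error only. Col control 1 had reads in 31430 loci, and the other 3 libraries had reads in 23123 to 24439. Markers of the fruit wall, 8 of which were tested, summed to 542 and 526 CPM in the control libraries and to 498 and 555 CPM in the hybrid libraries, with 0 called by edgeR or DESeq2 and 1 in each direction at an unadjusted p below 0.05. Pollen markers summed to 29.3 and 2.85 CPM in the controls and to 17.3 and 12.8 CPM in the hybrids, with SHT at 0, and the 3 egg cell and synergid markers summed to 6.55 CPM at most. Among the 10 endosperm markers 3 rose (1 omitting Col control 1) and 3 fell, and their sum ranged from 163 to 179 CPM in the controls and from 225 to 344 CPM in the hybrids, with a median log2 change of -0.26. Embryo markers summed to 211 to 244 CPM in the controls and to 361 to 522 CPM in the hybrids, although 5 of the 7 tested had negative changes (median log2 -1.45). By edgeR 1 of the 7 was called, upwards, and at an unadjusted p below 0.05 it was 2 upwards and 3 downwards. Ribosomal RNA loci took 0.783% and 0.753% of reads in the hybrids against 0.131% and 0.11% in the controls, and loci of the mitochondrial genome 1.27% and 0.749% against 0.496% and 0.352%. In whole seeds, fewer cells of a type and less RNA per cell cannot be told apart.

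Of the 20552 loci tested, 3454 (16.8%) differed between Col hybrid and Col control seeds, 2143 (10.4%) upwards and 1311 (6.38%) downwards. Changes of at least 2-fold were called at 1477 loci (7.19%), 814 upwards and 663 downwards. Among larger changes the balance was the other way: at least 4-fold, 183 loci rose and 274 fell, at least 8-fold, 73 rose and 178 fell, and at least 16-fold, 37 rose and 112 fell. The numerous small increases and the fewer but deeper decreases are visible in the plot of change against level. The median log2 change over all loci was -0.01, and it was -0.158 with upper quartile scaling, under which 1338 loci rose and 1992 fell. At least 2-fold, 558 loci then rose and 891 fell. Without Col control 1, 862 rose and 886 fell, so the predominance of increases depended on the scaling and on that library. With ribosomal RNA, tRNA and organelle loci removed before the fit, 2154 rose and 1321 fell.

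**Figure D1:**
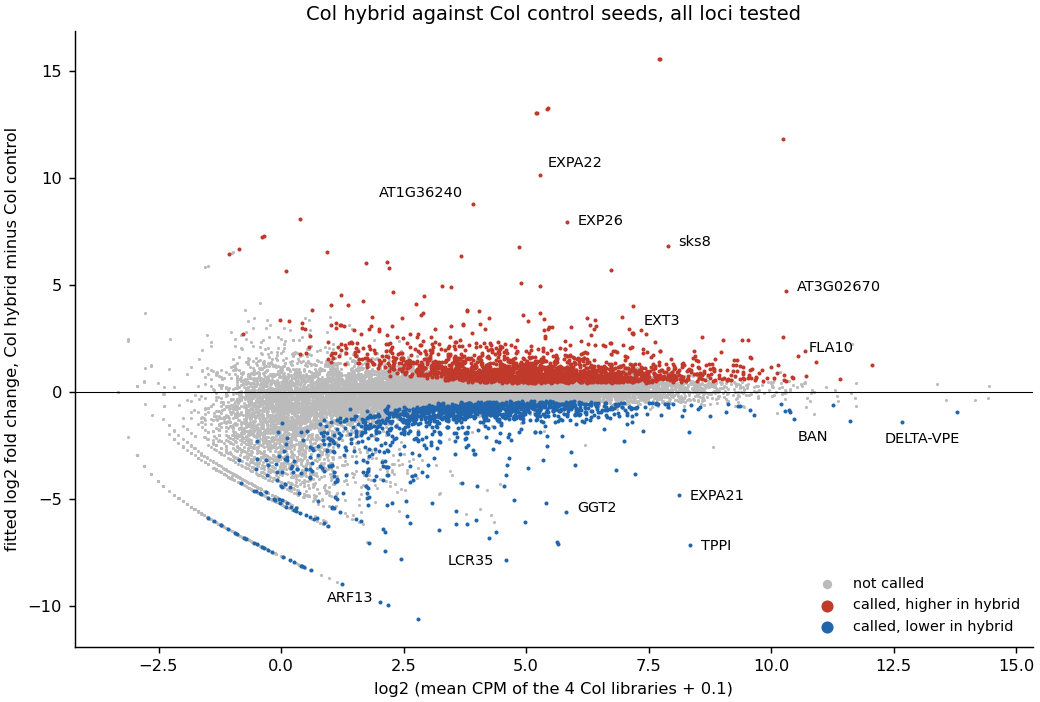
Each point is 1 of the 20552 loci tested, with the log2 of its mean CPM over the 4 Col libraries on the x axis and the fitted log2 fold change on the y axis. Red points were called higher (2143) and blue points lower (1311) in Col hybrid seeds, and the highest unnamed points are ribosomal RNA loci of the nucleus and plastid, whose read assignment is uncertain. The named loci are described in the text.

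The counts rested on few libraries. Without Col control 1, 1748 loci were called, without Col hybrid 1, 1275, and without Col hybrid 2, 1743, while 3370 were called without Col control 2. Of the calls without Col hybrid 1, 943 were upwards and 332 downwards. The fit over all 14 libraries called 1056, and in it 125 of the 257 called loci that met the naming rules or were chosen later lost their call. With 1 library left in a group, that library is assumed to vary like the other groups. Of the 1477 loci with at least a 2-fold change, 1163 were still called without Col control 1, 912 omitting Col hybrid 1, 1170 omitting Col hybrid 2 and 1253 omitting Col control 2.

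**Figure D2:**
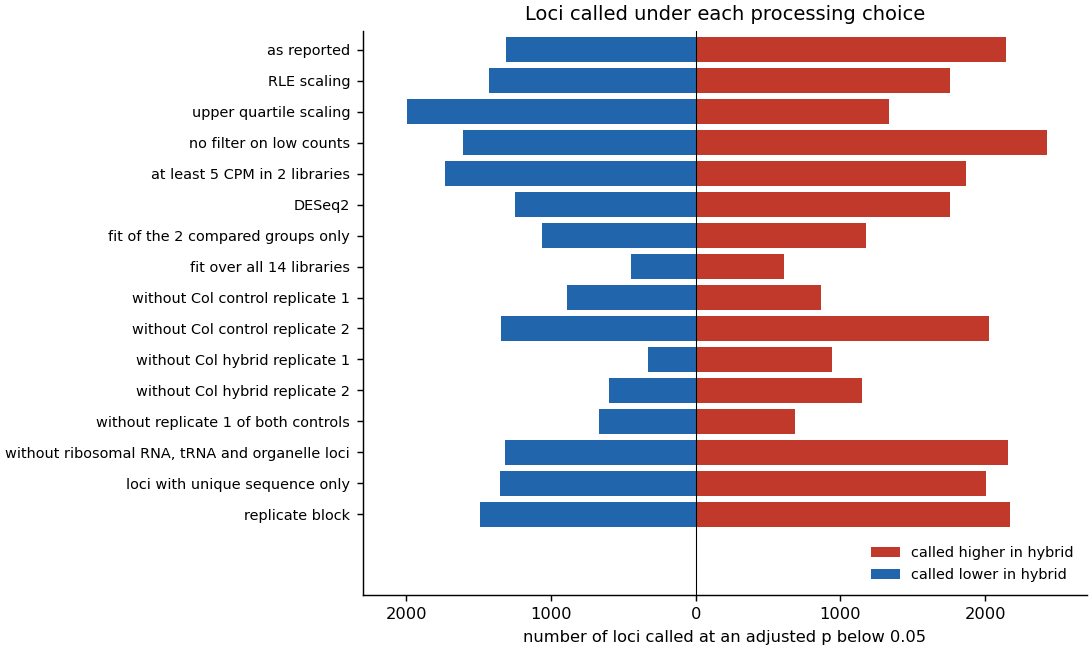
Bars give the number of loci called higher (right, red) and lower (left, blue) in Col hybrid seeds under each processing choice, with the reported fit at the top. The count as reported is 3454, upper quartile scaling turns the majority from higher to lower loci, and leaving out Col hybrid 1 leaves 1275.

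The hybrid effect was also set against that of the C24 cross, whose control and hybrid libraries shared the fit. The difference between the Col effect and the C24 effect was called at 285 loci (1.39%), at 200 of them with a lower and at 85 with a higher effect in Col. That count was 33 in the fit over all 14 libraries and 1052 with no filter on low counts. Where a locus below is said to differ between the crosses, this test called it. C24 values are given only for such loci or for side-by-side reading.

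The largest increases were taken among nuclear messenger RNA loci that reached 10 CPM and whose Col groups did not overlap. They were in genes of the cell wall, secreted proteins and a ribosomal protein. EXPA22 (AT5G39270), an alpha-expansin, a class of proteins that loosen the cell wall, had 0.0596 and 0.0607 CPM in the control libraries, 1 read in each, and 60.8 and 95.3 CPM in the hybrid libraries. The ratio of the summed reads was 1208 (95% interval 334 to 9979; adjusted p = 1.55e-05). EXP26 (AT5G39290), another expansin of the same gene cluster, rose from 0.596 and 0.303 CPM to 106 and 121 CPM (log2 7.94 ± 0.28, adjusted p = 8.78e-06). Both sets of libraries lay far apart, but 48.1% of the 31-base exon words of EXPA22 and 48.9% of those of EXP26 occur elsewhere in the genome, so how the reads divide among the copies is uncertain. Such loci, with over 5% of their words elsewhere, are called not unique below.

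AT1G36240, which encodes a ribosomal protein of the L30e family, had 2 reads in Col control 1 and 0 in Col control 2, against 27.9 and 32.1 CPM in the hybrids. The ratio of reads was 488 (95% interval 135 to 4035; adjusted p = 0.000129), and the A. arenosa control seeds held 233 and 234 CPM of this locus on a scale set over all 14 libraries. Its sequence was unique, and no control library came near a hybrid library. sks8 (AT1G21850), a member of the SKU5-similar family of multicopper-oxidase-like wall proteins, rose from 5.54 and 2.79 CPM to 471 and 468 CPM (6.81 ± 0.36, adjusted p = 6.63e-05). AT3G02670, a glycine-rich protein, rose from 80.0 and 106 CPM to 2349 and 2486 CPM (4.70 ± 0.22, adjusted p = 3.54e-05), which made it the most abundant of these loci. The cysteine proteinase AT4G23520 rose from 5.96 and 2.18 CPM to 181 and 237 CPM (5.68 ± 0.43, adjusted p = 0.000306). These 3 loci were called under every alternative run for named loci, and in each of them both hybrid libraries lay far above both controls. The effect on sks8 differed between the crosses (-3.20 ± 0.55, adjusted p = 0.0312).

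The other loci of this class rose from at most 2.62 CPM in any control library to between 17.6 and 78.9 CPM in the hybrids. They comprised AT5G25415 of the DUF239 family, AT2G18420 and AT2G04910, of the gibberellin-regulated and X8 carbohydrate-binding families, the ECA1-related peptide AT3G01331, the pectin methylesterase inhibitor AT3G17225 (18.5% not unique) and AT1G06020, a pfkB-like carbohydrate kinase (9.55% not unique). As the rule for naming them required, every hybrid library exceeded every control library. AT2G18420 rose from 0.417 and 0.182 CPM to 18.7 and 31.2 CPM (6.32 ± 0.41, adjusted p = 0.000132), and AT2G04910 from 2.2 and 1.15 CPM to 50.2 and 65.6 CPM (5.09 ± 0.26, adjusted p = 6.35e-05).

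**Figure D3:**
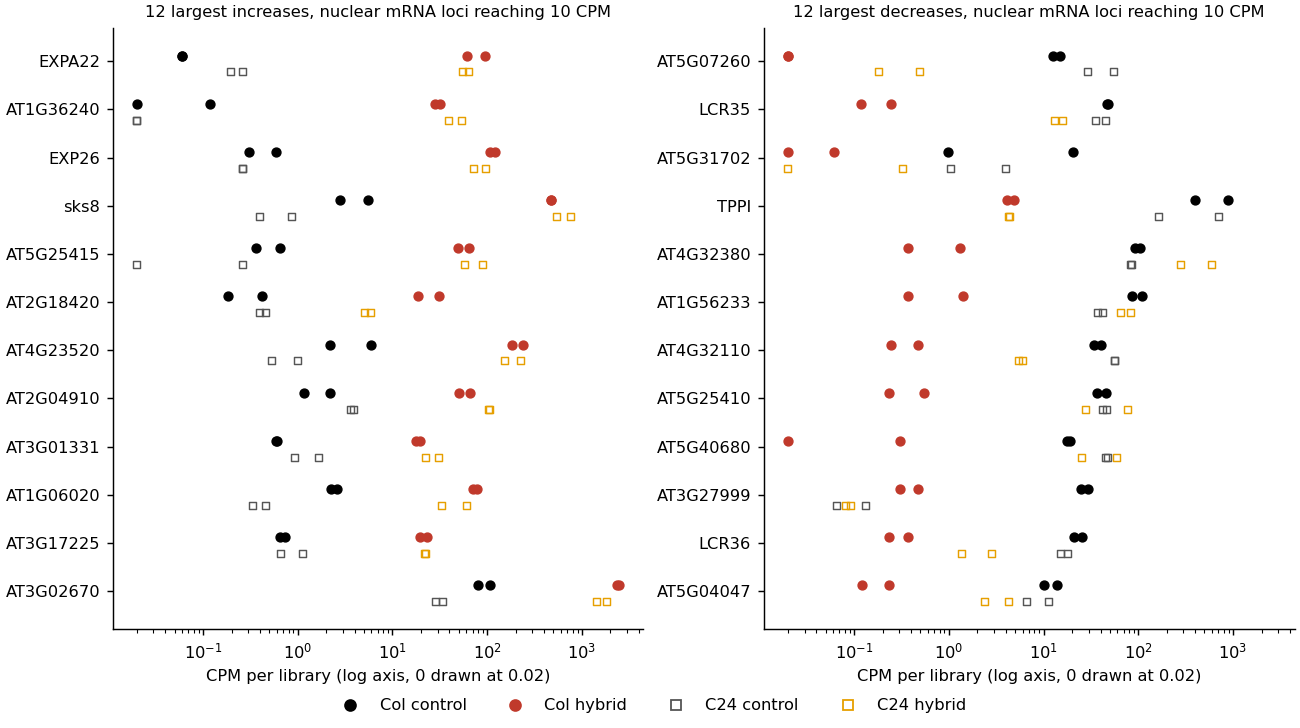
Each row is a locus, the x axis is its CPM in each library on a log scale, and values of 0 are drawn at 0.02. Filled circles are the 2 Col control (black) and 2 Col hybrid (red) libraries, and open squares are the C24 libraries. The 24 loci were chosen so that the Col groups do not overlap. At several decreases, such as AT4G32380 and AT1G56233, the C24 hybrid lies at or above its control.

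The deepest decreases, with the exception of TPPI, were in loci with at most 0.925 CPM in A. arenosa control seeds. Those libraries were shallower, at 1777781 and 2089616 reads, and had reads in 19860 and 19596 of the 33602 loci. The share of all tested loci at such low A. arenosa levels was not computed. AT4G32380, of the pectin lyase superfamily, had 93.3 and 105 CPM in the controls and 0.368 and 1.3 CPM in the hybrids (-7.12 ± 0.54, adjusted p = 0.000295). In the C24 cross the same locus went from 81.9 and 84.1 CPM to 588 and 277 CPM, and the crosses differed (-9.50 ± 0.65, adjusted p = 0.000582). AT1G56233, a protein of unknown function, went from 85.1 and 110 CPM to 0.368 and 1.42 CPM (-7.01 ± 0.39, adjusted p = 8.36e-05), against 42.3 and 37.3 CPM and then 82.5 and 64.4 CPM in C24. Both loci were at 0 in the 2 A. arenosa control libraries, and in whole siliques of the Col hybrid cross they had at most 0.908 and 2.3 CPM.

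LCR35 (AT2G22121), a small cysteine-rich secreted peptide, fell from 47.0 and 47.9 CPM to 0.245 and 0.118 CPM (-7.82 ± 0.29, adjusted p = 8.78e-06), and LCR36 (AT4G09153) fell from 21.2 and 25.4 CPM to 0.368 and 0.236 CPM (-6.15 ± 0.39, adjusted p = 0.000132). In the C24 hybrid LCR35 was still at 15.7 and 13.1 CPM, and both peptides differed between the crosses (adjusted p = 0.000437 and 0.0309). AT5G07260, a START-domain protein, had 12.5 and 15.0 CPM in the controls and 0 reads in both hybrid libraries, so it was at least 51.1-fold lower, with 3 reads per library as the floor (adjusted p = 0.000817). TPPI (AT5G10100), a phosphatase that removes the phosphate of trehalose phosphate, a signal of sugar status, fell from 894 and 393 CPM to 4.90 and 4.13 CPM (-7.13 ± 0.80, adjusted p = 0.00164). Unlike the loci above, TPPI was abundant in A. arenosa seeds, at 1012 and 1613 CPM, and it did not pass the test for a difference between crosses (adjusted p = 0.849).

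AT5G40680, a kelch-repeat protein, fell from 17.8 and 19.1 CPM to 0.306 and 0 CPM (-6.47 ± 0.67, adjusted p = 0.00109), while the C24 hybrid held 58.4 and 25.4 CPM. AT4G32110 (8.56% not unique), of a glycosyltransferase-like family, fell from 34.4 and 40.3 CPM to 0.245 and 0.473 CPM, and AT5G04047, of the S1 self-incompatibility family, from 10.07 and 14 CPM to 0.123 and 0.236 CPM. The pectin methylesterase inhibitor AT3G27999 (37.0% not unique) fell from 25.0 and 29.2 CPM to 0.306 and 0.473 CPM. AT5G31702 (24.5% not unique) had 20.4 CPM in Col control 1 and 0.971 CPM in Col control 2, and significance was lost on omitting Col control 1 (adjusted p = 0.0965) or Col hybrid 1 (0.09), so its call rests on those libraries. Of these loci, AT5G31702 and AT3G27999 did not pass the test for a difference between crosses (0.6 and 0.0526), and the remaining 3 did.

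A stricter class was formed of loci below 1 CPM in both libraries of 1 Col group and at least 10 CPM in both of the other. In it, 12 loci were lost and 9 were gained in the hybrid. Among the 12 lost loci, 10 differed between the crosses and 5 were still at 10 CPM or more in C24 hybrid seeds. All 12 were below 1 CPM in A. arenosa seeds, but the share of all tested loci below that level was not computed. Among the 9 gained loci, 0 differed between the crosses by edgeR or DESeq2, 2 did so at an unadjusted p below 0.05, and 6 reached 10 CPM in C24 hybrid seeds. The members of this class were set by these values, which are therefore a description. The gained loci were the ones named among the largest increases below 1 CPM in the controls, with AT3G57310, a lipid transfer protein, and RALFL21 (AT3G04735), a signalling peptide chosen after its values were seen, which rose from a mean of 0.629 to 14.2 CPM.

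The expansins form a cluster of 5 tested neighbours on chromosome 5, and they split. EXPA21 (AT5G39260), the first of the cluster and unique in sequence, fell from 564 and 506 CPM to 15.4 and 23.4 CPM (-4.80 ± 0.32, adjusted p = 0.000171). Its neighbour EXPA22 and the farther EXP26 rose from near 0, as given above. EXPA23 (AT5G39280, 64.7% not unique) had 343 and 370 CPM in the controls and 254 and 319 CPM in the hybrids, and EXPA25 (AT5G39300, 62.9% not unique) had 320 and 336 CPM and then 380 and 473 CPM. Neither passed the test (adjusted p = 0.353 and 0.154). These last 2 loci were chosen after their values were seen.

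In the C24 cross EXPA21 stood at 310 and 271 CPM in the controls and at 429 and 247 CPM in the hybrids. Its hybrid effect differed between the crosses (-5.02 ± 0.41, adjusted p = 0.00142), and so did those of EXPA23 (adjusted p = 0.0068) and EXPA25 (0.00591), which had 876 and 541 CPM and 1053 and 830 CPM in the C24 hybrid. For EXPA22 and EXP26 that difference was not called (0.342 and 0.812). A. arenosa control seeds held 28.7 and 14.8 CPM of EXPA22 and 0.941 and 0 CPM of EXPA23. Over the whole superfamily, 5 of 25 tested expansins rose and 2 fell, against 10.4% and 6.38% of all loci. Their median log2 change was 0.35, against -0.01 over all loci. The other members called were EXPA6 (AT2G28950), from 36.8 and 35.6 CPM to 113 and 85.5 CPM (1.46 ± 0.15, adjusted p = 0.00119), EXPA15 and EXPA20, both upwards and chosen after their values were seen, and the expansin-like EXLA1 (AT3G45970), from 744 and 873 CPM to 516 and 500 CPM. EXLA1 lost significance on omitting Col control 2 (adjusted p = 0.187), Col hybrid 1 (0.162) or Col hybrid 2 (0.29). The count downwards was 1 without any of these 3 libraries.

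The sequences upstream of the expansins that moved most are shown because neighbours with opposite changes can be compared in them. Each is the 250 bases before the annotated start of the gene in the RefSeq annotation of TAIR10.1, read 5′ to 3′ on the strand of the gene, which is the minus strand for these 3 genes. Capitals mark TATAAA, or its reverse complement, anywhere in the window.
EXPA21, chr5:15727459-15727708, fell: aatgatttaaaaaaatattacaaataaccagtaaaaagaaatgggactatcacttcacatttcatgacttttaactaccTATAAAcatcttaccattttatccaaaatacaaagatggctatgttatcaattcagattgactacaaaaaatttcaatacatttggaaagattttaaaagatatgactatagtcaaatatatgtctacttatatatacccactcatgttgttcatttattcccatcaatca
EXPA22, chr5:15730232-15730481, rose: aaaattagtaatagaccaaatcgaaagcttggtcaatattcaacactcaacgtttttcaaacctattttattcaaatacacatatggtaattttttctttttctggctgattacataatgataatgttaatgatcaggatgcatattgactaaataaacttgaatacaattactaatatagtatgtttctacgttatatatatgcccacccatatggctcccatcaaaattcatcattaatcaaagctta
EXP26, chr5:15736980-15737229, rose: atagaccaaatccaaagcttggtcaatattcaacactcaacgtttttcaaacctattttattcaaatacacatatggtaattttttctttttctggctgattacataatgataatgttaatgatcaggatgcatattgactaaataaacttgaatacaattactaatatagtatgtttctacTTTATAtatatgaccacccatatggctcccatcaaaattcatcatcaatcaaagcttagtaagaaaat

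In a global alignment the windows of EXPA22 and EXP26, the pair that rose, were identical at 236 of 260 aligned positions (90.8%). EXPA21, which fell, matched EXPA22 at 58.4% and EXP26 at 54.9% of positions, and EXPA23, which was not called, matched EXPA21 at 65.2%, EXP26 at 58.5% and EXPA22 at 58.4%. The window pairs of an expansin with ARF12 or ARF14, unrelated genes described next, lay between 50.7% and 56.2%. TATAAA on either strand occurs in 47.8% of the 26706 windows of this length, in 51.6% of those of loci called at least 2-fold higher and in 53.6% of those called at least 2-fold lower. TTGACC, the core of the site bound by WRKY factors, occurs on either strand in 12.2% of all windows, among them those of EXPA22 and EXP26 but not that of EXPA21, and in 15.4% of the higher and 16.0% of the lower loci. CACGTG, which is its own reverse complement, was found in 6.58% of all windows, in 7.45% of the higher and in 4.74% of the lower loci, TGTCTC in 10.9%, 10.0% and 11.2%, and the CArG-box in 2.55%, 2.31% and 1.58%. These matches are descriptions of letters and not of bound sites.

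**Figure D4:**
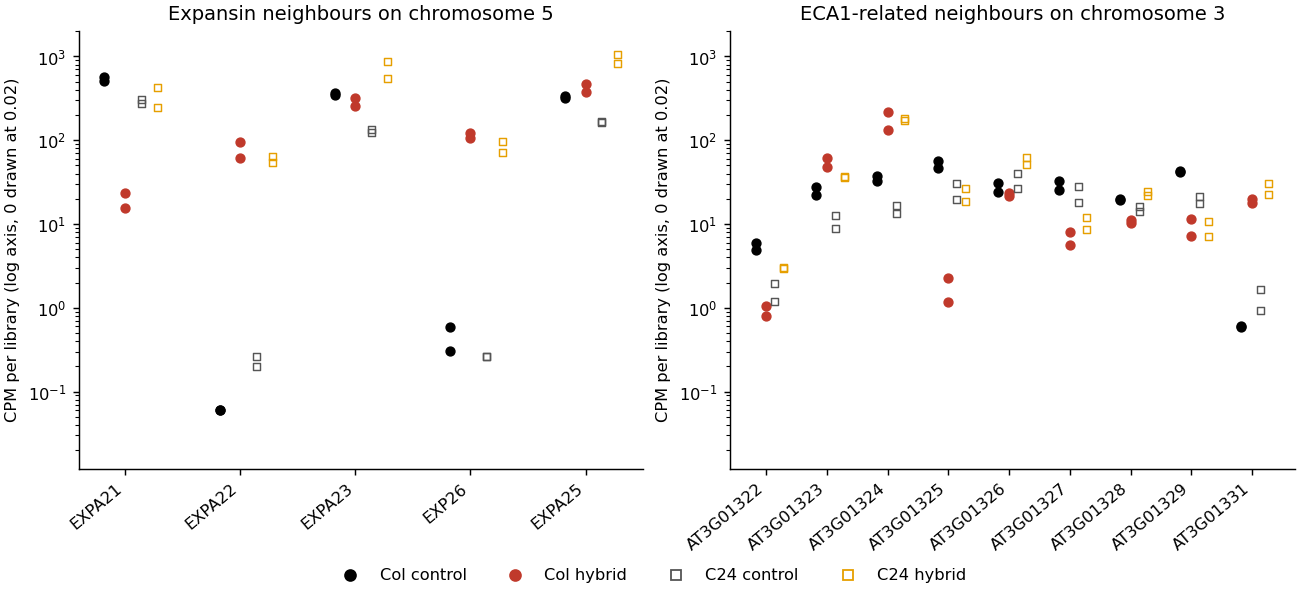
Points give CPM per library on a log axis for 5 neighbouring expansins (left) and 9 neighbouring loci of a stretch with ECA1-related genes (right), with values of 0 drawn at 0.02. Filled circles are Col control (black) and Col hybrid (red), and open squares are the C24 libraries. EXPA21 falls while its neighbour EXPA22 rises in the Col hybrid, and the loci on the right move in both directions within their stretch.

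A group of auxin response factors on chromosome 1 lost nearly all reads. ARF13 (AT1G34170), unique in sequence, had 7.09 and 10.7 CPM in the controls and 0 reads in both hybrid libraries, so it was at least 33.1-fold lower (adjusted p = 0.00126). In the C24 hybrid it kept 7.26 and 3.53 CPM, from 8.44 and 11.5 CPM in the control, and the crosses differed (adjusted p = 0.0162). Its relatives are not unique, with 36.5% to 59.0% of their words elsewhere. ARF12 (AT1G34310) went from 64 and 133 reads to 1 read in each hybrid library, a ratio of 73.4 (95% interval 20.05 to 610; adjusted p = 0.00252). ARF14 (AT1G35540) went from 99 and 179 reads to 0 and 2 reads, a ratio of 104 (28.4 to 860; adjusted p = 0.00414). ARF15, picked with its values known, had 31 and 42 reads in the controls and 0 in the hybrids, and it was at least 8.17-fold lower (adjusted p = 0.00589). ARF20, ARF21 and ARF22, chosen in the same way, had 20 to 48 reads in each control library and 1 read in the 2 hybrid libraries together. Significance was lost for ARF21 and ARF22 on omitting Col hybrid 1 (adjusted p = 0.0664 and 0.062). All 7 were between 0 and 0.471 CPM in the A. arenosa controls.

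The upstream windows of ARF12 and ARF14 are shown as 2 members of this group that fell, with the same marking as above. ARF12 lies on the minus strand and ARF14 on the plus strand of TAIR10.1.
ARF12, chr1:12511521-12511770, fell: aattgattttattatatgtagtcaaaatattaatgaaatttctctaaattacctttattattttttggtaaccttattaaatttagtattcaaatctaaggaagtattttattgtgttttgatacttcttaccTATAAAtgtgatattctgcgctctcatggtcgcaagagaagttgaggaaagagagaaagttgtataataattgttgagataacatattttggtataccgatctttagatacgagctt
ARF14, chr1:13108384-13108633, fell: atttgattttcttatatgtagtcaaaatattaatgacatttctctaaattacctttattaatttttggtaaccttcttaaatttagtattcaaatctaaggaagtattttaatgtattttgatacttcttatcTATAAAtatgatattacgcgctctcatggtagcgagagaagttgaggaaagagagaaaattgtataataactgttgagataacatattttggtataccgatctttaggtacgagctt
These 2 windows were identical at 234 of 250 positions (93.6%), and both hold TATAAA at the same place.

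Of 72 tested auxin genes in all, 9 rose and 10 fell, against 10.4% and 6.38% of all loci. Of the 10, 7 were these clustered factors. Over unique loci alone 10 of 64 rose and 5 fell. PIN3 (AT1G70940), an auxin efflux carrier, rose from 82.6 and 87.1 CPM to 207 and 194 CPM (1.24 ± 0.12, adjusted p = 0.00094). TAR1 (AT1G23320), a tryptophan aminotransferase of auxin synthesis, rose from 1.25 and 1.15 CPM to 8.39 and 6.62 CPM (2.64 ± 0.41, adjusted p = 0.00539). Both were called under every alternative run. ARF2 (AT5G62000), a repressor-type response factor, rose from 266 and 283 CPM to 565 and 459 CPM (0.90 ± 0.15, adjusted p = 0.00764), which lost significance on omitting Col control 1 (0.0768) or Col hybrid 1 (0.0857). The list's count upwards was 4 omitting Col control 1, 6 omitting Col control 2 and 3 omitting Col hybrid 1.

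Families of small secreted proteins moved in both directions at once. Of 328 defensin-like and cysteine-rich peptide genes, 124 were tested, 26 rose and 32 fell, against 10.4% and 6.38% of all loci. Their median log2 change was -0.35, and 19 of them differed between the crosses. AT1G61688, a defensin-like peptide, rose from 38.1 and 39.0 CPM to 237 and 263 CPM (2.70 ± 0.19, adjusted p = 0.000205), and AT3G24510 from 55.0 and 74.9 CPM to 288 and 369 CPM (2.34 ± 0.22, adjusted p = 0.000768). LCR22 (AT4G29280) fell from 11.2 and 11.6 CPM to 0.245 and 0.118 CPM (-5.78 ± 0.35, adjusted p = 0.000126), beside the decreases of LCR35 and LCR36. Groups did not overlap at any of these 5 peptides, which the naming rule required for LCR35 and LCR36. How often groups did not overlap among all loci was not computed. In sum the list rose from 3158 and 3745 CPM to 5606 and 6904 CPM, although more members fell than rose. Counts without a Col library ranged from 18 to 29 upwards and from 22 to 34 downwards. SCRL9 (AT2G05117), an SCR-like peptide chosen after its values were seen, fell from 17.8 and 14.7 CPM to 0.429 and 0.473 CPM (-5.16 ± 0.36, adjusted p = 0.000187).

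Among 9 loci in 1 stretch of chromosome 3 that holds ECA1-related genes, chosen after their values were seen, 3 rose and 5 fell. ECA1-related genes encode small cysteine-rich proteins annotated as related to gametogenesis. AT3G01324, AT3G01329 and AT3G01331 carry that annotation, and AT3G01325 is annotated as an uncharacterized protein. AT3G01324 rose from 37.8 and 33.0 CPM to 133 and 215 CPM (2.29 ± 0.23, adjusted p = 0.00106), and the next locus, AT3G01325, fell from 46.4 and 57.0 CPM to 1.16 and 2.24 CPM (-5.03 ± 0.36, adjusted p = 0.000243). AT3G01329 (5.33% not unique) fell from 41.4 and 43.4 CPM to 7.11 and 11.5 CPM, and its neighbour AT3G01331 rose from 0.596 and 0.607 CPM to 17.6 and 19.7 CPM. AT3G01326 was not called (24.3 and 30.8 CPM, then 23.3 and 21.9 CPM; adjusted p = 0.4). The remaining 4 loci were AT3G01323, which rose, and AT3G01322, AT3G01327 and AT3G01328, which fell by 2.56, 2.11 and 0.90 on the log2 scale. AT3G01328 lost significance on omitting Col hybrid 1 (0.0933) or Col hybrid 2 (0.0704). A separate ECA1 family gene, AT5G51105, was among the most abundant to rise, from 605 and 796 CPM to 2391 and 2819 CPM (1.90 ± 0.19, adjusted p = 0.000879).

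The DUF239 family, proteins of unknown function, some annotated as carboxyl-terminal peptidases, was examined after its members were seen among the largest changes. Of 37 tested members 8 rose and 9 fell, against 10.4% and 6.38% of all loci, and 9 differed between the crosses, against 1.39%. The neighbours AT5G25410 and AT5G25415 moved in opposite directions: the first fell from 36.3 and 45.9 CPM to 0.551 and 0.236 CPM (-6.52 ± 0.65, adjusted p = 0.000907), and the second rose from 0.655 and 0.364 CPM to 49.6 and 64.6 CPM (6.77 ± 0.43, adjusted p = 0.000131). Both loci are unique in sequence, and in the C24 hybrid the first stood at 77.4 and 28.1 CPM. AT5G46810 (15.3% not unique) fell from 59.9 and 62.6 CPM to 0.490 and 1.65 CPM, and AT4G15050 (21.7% not unique) from 102 and 110 CPM to 12.5 and 17.8 CPM. AT2G38255 fell from 64.4 and 82.4 CPM to 11.3 and 14.3 CPM, and AT4G17505 from 9.77 and 13.7 CPM to 0.368 and 1.42 CPM. These 4 and AT5G25410 all differed between the crosses. AT4G23350 (19.2% not unique) rose from 18.1 and 15.5 CPM to 253 and 296 CPM (4.03 ± 0.22, adjusted p = 7.99e-05), and AT3G48230 from 31.1 and 22.5 CPM to 85.4 and 87.5 CPM. AT3G48230 was at or below 0.132 CPM in all 4 C24 libraries.

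Opposite changes of neighbours were counted over the genome. Among 14936 pairs of neighbouring protein-coding loci that were both tested, 138 held 2 loci each called with at least a 2-fold change. Of these, 56 pairs rose together, 38 fell together and 44 moved in opposite directions, so most pairs moved in the same direction. Over all tested loci 814 rose and 663 fell by at least 2-fold. The number of opposite pairs that unrelated loci would give was not computed. The opposite pairs included, beside those above, members of the same family. BGLU28 rose from 51.8 and 40.7 CPM to 130 and 216 CPM and the adjacent BGLU29 fell from 48.8 and 57.0 CPM to 18.9 and 29.5 CPM, both beta-glucosidases. LCR24 rose from 79.4 and 85.4 CPM to 141 and 211 CPM and LCR21 fell from 24.3 and 36.1 CPM to 1.41 and 1.42 CPM. GGT2 (AT4G39650), a gamma-glutamyl transpeptidase, which acts on glutathione, fell from 113 and 107 CPM to 2.08 and 2.48 CPM (-5.62 ± 0.49, adjusted p = 0.000579), and the adjacent gamma-glutamyl transpeptidase AT4G39640 rose from 3.52 and 2.91 CPM to 9.49 and 7.21 CPM. In the C24 cross GGT2 went from 226 and 133 CPM to 446 and 202 CPM, and the crosses differed (adjusted p = 0.00266). The calls of BGLU29 (adjusted p = 0.139) and AT4G39640 (0.0638) ended without Col hybrid 1, and that of LCR24 on omitting Col control 1 (0.0752) or Col hybrid 2 (0.111). The libraries did not mark strand, so reads of overlapping neighbours cannot be separated.

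Of 49 tested arabinogalactan, extensin and proline-rich wall protein genes 17 rose and 0 fell by edgeR, with a median log2 change of 1.00, against 10.4% and 6.38% over all loci. DESeq2 called 16 upwards and 0 downwards, and at an unadjusted p below 0.05 it was 29 and 0. FLA10 (AT3G60900), a fasciclin-like arabinogalactan protein, rose from 654 and 765 CPM to 2430 and 2104 CPM (1.68 ± 0.18, adjusted p = 0.0012). EXT3 (AT1G21310), an extensin that forms wall scaffolds, rose from 36.9 and 36.6 CPM to 257 and 243 CPM (2.77 ± 0.17, adjusted p = 0.000126), and PRP4 (AT4G38770), a proline-rich protein, from 294 and 334 CPM to 901 and 882 CPM (1.51 ± 0.13, adjusted p = 0.000624). These 3 genes were called under every alternative run, and their groups did not overlap. AIR1 (AT4G12550, 20.12% not unique) rose from 1.97 and 1.7 CPM to 17.3 and 34.1 CPM, against 15.0 and 11.1 CPM and then 14 and 11.7 CPM in C24, and the crosses differed (adjusted p = 0.00913). Named after their values were seen, FLA8, AGP17, AGP16, AGP1 and AGP10 rose from means of 370, 89.3, 19.2, 31.5 and 246 CPM to 1147, 333, 67.0, 93.5 and 608 CPM. The sum of the list went from 4418 and 4861 CPM to 12160 and 8540 CPM, so it was highest in Col hybrid 1. The count upwards was 8 omitting Col control 1, 7 omitting Col hybrid 1, 23 omitting Col hybrid 2 and 10 with upper quartile scaling.

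**Figure D5:**
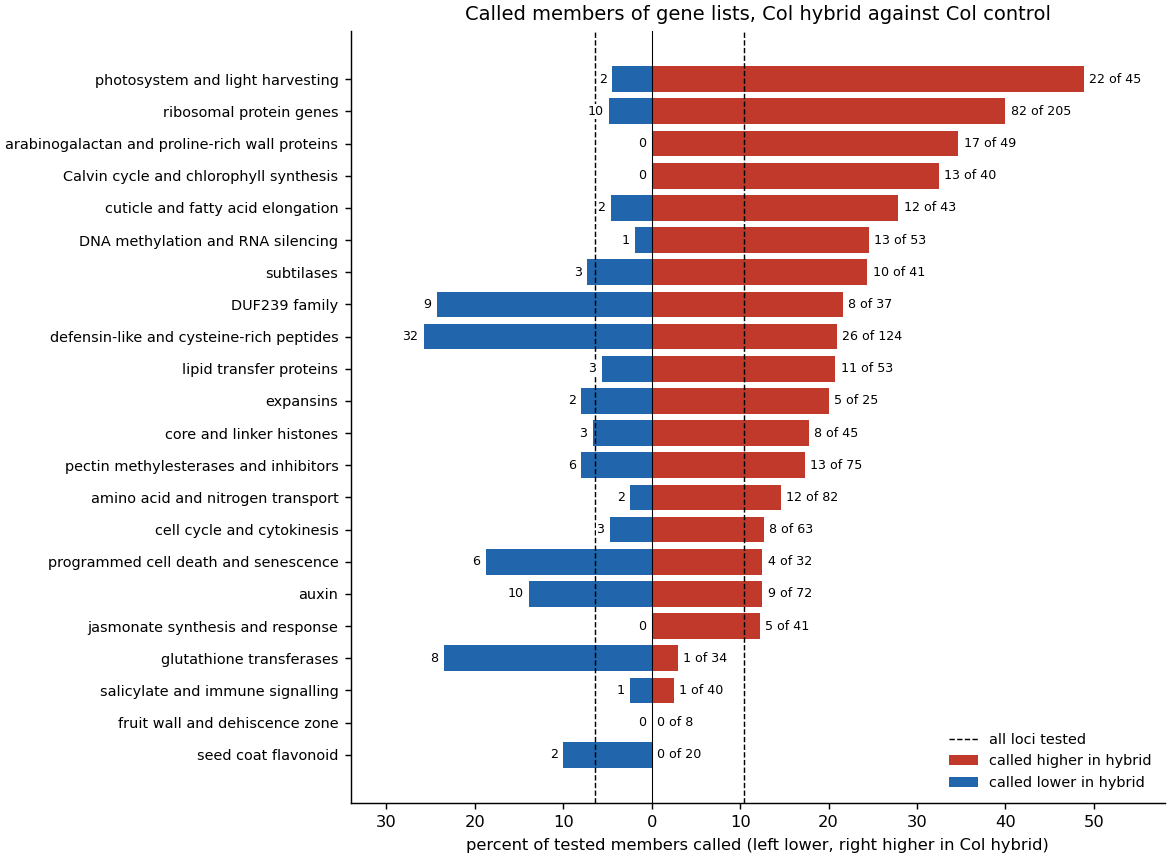
Bars give the percent of tested members of each gene list that were called lower (left, blue) and higher (right, red) in Col hybrid seeds, with the number of called members at the bar ends and the tested members beside the red bars. Dashed lines mark the same percents over all 20552 loci (6.38 and 10.4). Photosystem, ribosomal protein and arabinogalactan genes extend farthest to the right, and defensin-like and DUF239 genes extend on both sides.

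Enzymes of wall polysaccharides were mixed. Of 75 tested pectin methylesterases and their inhibitors 13 rose and 6 fell, against 10.4% and 6.38% of all loci. Of 71 polygalacturonases and pectate lyases 8 rose and 3 fell, shares near those of all loci. The inhibitor-like AT4G15750 was the most abundant locus to fall, from 20685 and 16522 CPM to 8340 and 11342 CPM (-0.92 ± 0.20, adjusted p = 0.0186). It lost significance on omitting Col control 1 (adjusted p = 0.104), Col control 2 (0.053) or Col hybrid 1 (0.0717). AT3G17152 rose from 20.8 and 23.1 CPM to 107 and 169 CPM (2.65 ± 0.23, adjusted p = 0.000579) and AT1G14890 from 19.7 and 13.8 CPM to 61.1 and 67.1 CPM (1.93 ± 0.18, adjusted p = 0.00077). BXL3 (AT5G09730), a beta-xylosidase, and FXG1 (AT1G67830), an alpha-fucosidase, were chosen after their values were seen. BXL3 rose from 388 and 320 CPM to 1925 and 2220 CPM (2.55 ± 0.28, adjusted p = 0.00135), and FXG1 from 20.2002 and 17.7 CPM to 119 and 175 CPM (2.95 ± 0.24, adjusted p = 0.000395). XTH9 (AT4G03210), a xyloglucan endotransglucosylase, fell from 292 and 293 CPM to 149 and 129 CPM (-1.07 ± 0.21, adjusted p = 0.0125), which lost significance on omitting Col hybrid 2 (0.117), and of 21 genes of that family 2 fell and 0 rose by edgeR, against 3 and 0 by DESeq2 and 4 and 1 at an unadjusted p below 0.05. Downward calls of pectin methylesterases and inhibitors numbered 3 omitting Col control 1 and 1 omitting Col hybrid 1. Polygalacturonase and pectate lyase calls numbered 8 up and 6 down omitting Col control 2, 5 up and 0 down omitting Col hybrid 1, and 8 up and 1 down omitting Col hybrid 2.

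Subtilases, secreted serine proteases examined after their values were seen, rose at 10 of 41 tested loci and fell at 3. The shares over all loci were 10.4% and 6.38%. Of the 41, 9 differed between the crosses, against 1.39% of all loci. SBT5.4 (AT5G59810) rose from 50.4 and 42.3 CPM to 302 and 302 CPM (2.70 ± 0.26, adjusted p = 0.000785). AT5G58820 (14.6% not unique) rose from 22.8 and 17.7 CPM to 218 and 238 CPM, and AT5G45650 from 33.8 and 34.0 CPM to 99.6 and 94.3 CPM. Going the other way, ALE1 (AT1G62340), a subtilase of the endosperm needed for the embryo cuticle, fell from 8.04 and 7.65 CPM to 0.368 and 1.18 CPM (-3.52 ± 0.66, adjusted p = 0.0107). In C24 ALE1 stood at 12.5 and 6.43 CPM and then at 21.5 and 8.60 CPM, and the test of the difference gave an adjusted p of 0.0513. Without Col control 2, 9 subtilases were called upwards and 7 downwards.

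Of 43 tested genes of the cuticle and of fatty acid elongation 12 rose and 2 fell, with a median log2 change of 0.21, where 10.4% of all loci rose and 6.38% fell. CYP86A8 (AT2G45970), a fatty acid hydroxylase of cutin synthesis, rose from 65.2 and 60.8 CPM to 142 and 113 CPM (1.02 ± 0.16, adjusted p = 0.00553), under every alternative run. CER2 (AT4G24510), which acts in wax synthesis, fell from 147 and 177 CPM to 93.2 and 55.9 CPM (-1.11 ± 0.23, adjusted p = 0.0143), which lost significance on omitting Col control 2 (0.0651) or Col hybrid 2 (0.199). Upwards calls numbered 4 omitting Col control 1, 3 omitting Col hybrid 1 and 9 without either of the other libraries. The epidermal PDF1 (AT2G42840), the embryo marker that was called, rose from 48.6 and 42.4 CPM to 298 and 113 CPM (2.18 ± 0.42, adjusted p = 0.012), with the hybrid libraries wide apart.

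Of 205 tested cytosolic ribosomal protein genes 82 rose and 10 fell, against 10.4% and 6.38% of all loci, the median log2 change was 0.45, and the sum went from 31432 and 33420 CPM to 41838 and 50214 CPM. The hybrid libraries lay above both controls. RS27A (AT3G61110), a protein of the small subunit, rose from 164 and 167 CPM to 501 and 552 CPM (1.67 ± 0.13, adjusted p = 0.000328), and AT5G40040, an acidic stalk protein, from 7.87 and 5.70 CPM to 26.3 and 32.1 CPM (2.1 ± 0.19, adjusted p = 0.000743). Of the L30e family, AT3G18740 fell from 393 and 406 CPM to 173 and 191 CPM (-1.14 ± 0.14, adjusted p = 0.00233), opposite to its paralogue AT1G36240, which rose to about 30 CPM. The drop of AT3G18740 in CPM was larger than the gain of AT1G36240, and both were called under every alternative run. PGY2 (AT1G33140) fell from 374 and 384 CPM to 179 and 248 CPM (62.5% of its words occur elsewhere), but significance was lost on omitting Col control 2 (0.0711), Col hybrid 1 (0.198) or Col hybrid 2 (0.0501). The count for the list was 26 up and 8 down omitting Col control 1, 51 and 2 omitting Col hybrid 1, and 26 and 4 omitting Col hybrid 2. It was 44 and 9 in the fit of the compared groups only and 27 and 1 in the fit over all 14 libraries. Of 26 tested ribosome biogenesis genes 3 rose and 1 fell.

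Nuclear genes of photosynthesis were read against the same shares. Of 45 tested photosystem and light-harvesting genes 22 rose and 2 fell (median log2 change 0.59), and of 40 Calvin cycle and chlorophyll genes 13 rose and 0 fell by edgeR (median 0.42), with 11 up and 0 down by DESeq2 and 19 up and 2 down at an unadjusted p below 0.05. PSAH-1 (AT3G16140), a subunit of photosystem I, rose from 14.1 and 18.6 CPM to 139 and 145 CPM (3.12 ± 0.24, adjusted p = 0.000306). LHCB2.2 (AT2G05070, 40.4% not unique), an antenna protein of photosystem II, rose from 27.6 and 24.5 CPM to 70.3 and 69.6 CPM (1.42 ± 0.15, adjusted p = 0.00122). RBCS1A (AT1G67090), the small subunit of Rubisco, rose from 568 and 681 CPM to 1466 and 1350 CPM (1.17 ± 0.22, adjusted p = 0.00995), but significance was lost on omitting Col control 1 (0.0602). Going against the list, PSAN (AT5G64040) of photosystem I fell from 74.4 and 81.6 CPM to 31.7 and 39.2 CPM (-1.14 ± 0.16, adjusted p = 0.00368), and PSBW (AT2G30570) of photosystem II from 109 and 132 CPM to 49.8 and 77.5 CPM (-0.93 ± 0.22, adjusted p = 0.0239). PSAN lost significance on omitting Col hybrid 1 (0.0556) and PSBW on omitting Col control 2 (0.102) or Col hybrid 1 (0.25).

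The 4 leaf mesophyll markers, which are photosynthesis genes themselves, summed to 699 and 818 CPM in the controls and to 1764 and 1676 CPM in the hybrids, none was at 0, and all 4 rose (2 omitting Col control 1). Whether leaf tissue had a part in these changes was not tested. The fruit wall markers given above were between 498 and 555 CPM in all 4 libraries. The photosystem count upwards was 16 to 22 without a Col library, 12 without replicate 1 of both controls and 5 in the fit over all 14 libraries. For the Calvin cycle list it was 2 omitting Col control 1, 5 omitting Col hybrid 1 and 3 omitting Col hybrid 2.

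Several of the most abundant loci to fall were genes of the maternal seed coat. DELTA-VPE (AT3G20210), a vacuolar processing protease of the dying inner seed coat layers, went from 7703 and 11203 CPM to 2896 and 4359 CPM (-1.38 ± 0.27, adjusted p = 0.0119). BAN (AT1G61720), the reductase that makes the building blocks of seed coat tannin, went from 1971 and 2045 CPM to 656 and 995 CPM (-1.28 ± 0.22, adjusted p = 0.00787), and it was called under every alternative run. DFR (AT5G42800), an earlier enzyme of flavonoid synthesis, fell from 2937 and 2955 CPM to 1792 and 2102 CPM (-0.60 ± 0.15, adjusted p = 0.0311). BAN and DFR were the 2 of 20 seed coat flavonoid genes that were called, against 16.8% of all loci. The sum of that list was 20938 and 21517 CPM in the controls and 20349 and 22796 CPM in the hybrids, and its median log2 change was -0.02. KAT5 (AT5G48880), a thiolase of peroxisomes, fell from 1636 and 1848 CPM to 777 and 1038 CPM (-0.94 ± 0.21, adjusted p = 0.0193). AT4G12870, of a family related to lysosomal thiol reductases, fell from 4190 and 4757 CPM to 1054 and 2400 CPM (-1.37 ± 0.32, adjusted p = 0.0227), and 3 of the 4 tested members of that family, examined after their values were seen, were called lower.

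The 10 seed coat markers summed to 3645 and 3855 CPM in the controls and to 2165 and 2510 CPM in the hybrids, none was at 0, and 2 of the 10, BAN and STK, fell. Most of the fall of the sum was that of BAN, given above. The median log2 change of the 10 markers was 0.02, and 5 of them had positive changes. Seed coat share was not tested as a part of these changes. Significance was lost for DELTA-VPE on omitting Col control 2 (adjusted p = 0.0597) or Col hybrid 1 (0.0648), and for KAT5 likewise (0.103 and 0.164). DFR lost significance on omitting any of the 4 Col libraries (0.121 to 0.286), and AT4G12870 on omitting Col control 2 (0.0536) or Col hybrid 1 (0.0503). Without either of these libraries 0 of the 4 members of that reductase family were called. STK lost significance on omitting Col control 2 (0.0631), Col hybrid 1 (0.138) or Col hybrid 2 (0.0625).

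Regulators of the endosperm and embryo changed in both directions. Of 21 tested imprinted and FIS-PRC2 genes, expressed mainly from 1 parental allele in the endosperm or encoding the Polycomb complex that silences such alleles, 7 rose and 3 fell. Over all loci the shares were 10.4% and 6.38%. MEA (AT1G02580), a histone methyltransferase of the Polycomb complex, rose from 9.41 and 7.04 CPM to 19.7 and 22.0 CPM (1.34 ± 0.25, adjusted p = 0.0102). FIE, another member of that complex, was called lower. Its call ended with DESeq2 (log2 -0.59, adjusted p = 0.0794) and in the fit of the compared groups only (-0.63, edgeR adjusted p = 0.0585). HDG9 (AT5G17320) and HDG10 (AT1G34650) are related homeodomain factors. HDG10 rose from 7.15 and 6.92 CPM to 34.3 and 29.2 CPM (2.18 ± 0.25, adjusted p = 0.00188), near the rise of HDG9 from 20.3 and 19.3 CPM to 78.6 and 86.6 CPM. MYB118 (AT3G27785), a factor of endosperm maturation, went from 86 and 42 reads to 1 read in each hybrid library, a ratio of 47.7 (95% interval 12.9 to 398; adjusted p = 0.0183), but significance was lost on omitting Col hybrid 1 (0.0816). CLE8 (AT1G67775), a peptide of embryo and endosperm development chosen after its values were seen, fell from 41.0 and 47.8 CPM to 1.84 and 2.48 CPM (-4.40 ± 0.30, adjusted p = 0.000177). It was at 0 in both A. arenosa libraries. Upward calls of imprinted and FIS-PRC2 genes numbered 4 omitting Col control 1.

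Among 19 tested type I MADS-box genes 3 rose and 3 fell, against 10.4% and 6.38% of all loci. AGL36 (AT5G26650, 32.9% not unique), expressed in the endosperm from the maternal allele, rose from 18.7 and 24.5 CPM to 67.9 and 109 CPM (2.02 ± 0.44, adjusted p = 0.0182). AGL80 (AT5G48670), a factor of the central cell, rose from 5.6 and 4.79 CPM to 10.9 and 12.8 CPM (1.18 ± 0.27, adjusted p = 0.0204). Both calls ended without Col control 1 (0.0563 and 0.0565), where 1 member of the list was called, downwards. AGL62 also rose, and AGL57 and AGL91 were among the type I genes that fell. Their calls ended in the fit over all 14 libraries (log2 1.24, -2.68 and -2.11, edgeR adjusted p = 0.0893, 0.159 and 0.132). That of AGL62 also ended with RLE scaling (edgeR adjusted p = 0.0508) and upper quartile scaling (0.0659). Of 27 embryo patterning genes 3 rose and 3 fell, the share upwards being near that of all loci. SHR (AT4G37650), a mobile factor of root and vascular patterning, rose from 17.9 and 12.1 CPM to 49.3 and 41.8 CPM (1.60 ± 0.20, adjusted p = 0.00253). AT1G10717, related to the endosperm peptide ESF1 that acts on the suspensor, fell from 17.0 and 20.0 CPM to 3.98 and 7.80 CPM (-1.69 ± 0.35, adjusted p = 0.0148), which lost significance on omitting Col hybrid 1 (0.0799). Downward calls of embryo patterning genes numbered 1 omitting Col hybrid 1.

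Genes of DNA methylation and RNA silencing rose at 13 of 53 tested loci and fell at 1, against 10.4% and 6.38% of all loci. Their median log2 change was 0.28. The VIM family, which binds methylated DNA and helps copy methylation, led the list. VIM5 (AT1G57800) went from 12.5 and 7.65 CPM to 79.4 and 85.4 CPM, VIM3 (AT5G39550, 30.4% not unique) from 12.1 and 11.0 CPM to 28.5 and 35.2 CPM, and VIM2 (AT1G66050, 76.9% not unique) from 3.46 and 4.37 CPM to 17.9 and 24 CPM. Their adjusted p-values were 0.000774, 0.00473 and 0.003, and the groups did not overlap. Named after their values were seen, the methyltransferase MET1 rose from a mean of 39.4 to 69 CPM and the argonaute AGO3 from 19.0 to 46.0 CPM. DCL2 (AT3G03300), which makes small RNA, fell from 20.3 and 16.7 CPM to 13.5 and 11.0 CPM (adjusted p = 0.049), and it lost significance with DESeq2 (0.107) or on omitting any 1 of the 4 Col libraries (0.115 to 0.488). The count upwards was 6 omitting Col control 1, 4 omitting Col hybrid 1, 6 omitting Col hybrid 2 and 10 omitting Col control 2.

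Histone genes rose at 8 of 45 tested loci and fell at 3, with a median log2 change of 0.54. AT5G10980, a histone H3, rose from 172 and 170 CPM to 458 and 554 CPM (1.56 ± 0.15, adjusted p = 0.000817). HTA8 (AT2G38810) and HTA11 (AT3G54560), both H2A.Z variants, fell from 21.0 and 25.5 CPM to 13.0 and 13.2 CPM and from 41.8 and 45.3 CPM to 18.4 and 27.6 CPM. Of these 3 genes the H3 gene alone was called without each Col library in turn. The count was 1 up and 3 down omitting Col control 1, 17 up and 1 down omitting Col hybrid 1, and 2 up and 1 down omitting Col hybrid 2, so it depended on which library was kept. Replication genes rose at 4 of 40 tested loci and fell at 4, and cell cycle genes rose at 8 of 63 and fell at 3 (4 and 6 with upper quartile scaling), shares near the 10.4% and 6.38% of all loci. CDKB2;1 (AT1G76540), a mitotic kinase, rose from 4.89 and 6.13 CPM to 16.7 and 12.9 CPM, while MAD2 (AT3G25980), of the spindle checkpoint, fell from 51.8 and 48.5 CPM to 24.9 and 26.6 CPM (-0.97 ± 0.17, adjusted p = 0.00784). MAD2 lost significance on omitting Col hybrid 1 (0.0826) or Col hybrid 2 (0.0781). Cell cycle calls numbered 2 up and 2 down omitting Col control 1, 5 and 1 omitting Col control 2, 3 and 0 omitting Col hybrid 1, and 5 and 3 omitting Col hybrid 2. Replication calls numbered 0 and 3, 4 and 0, 2 and 0, and 0 and 1 in the same order.

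Of 82 tested genes for amino acid, peptide and nitrogen transport 12 rose and 2 fell (8 and 4 with upper quartile scaling), the share upwards being near the 10.4% of all loci, and the sum went from 2648 and 2505 CPM to 3607 and 4013 CPM. OPT8 (AT5G53520), an oligopeptide transporter, rose from 13.2 and 10.3 CPM to 56.5 and 86.7 CPM (2.6 ± 0.34, adjusted p = 0.00284), and LHT1 (AT5G40780), an amino acid importer, from 8.64 and 8.56 CPM to 29.3 and 32.5 CPM (1.84 ± 0.14, adjusted p = 0.000341). OPT3 (AT4G16370), which carries metals in the phloem, rose from 92.4 and 86.3 CPM to 207 and 192 CPM (1.16 ± 0.14, adjusted p = 0.00211). The 2 that fell were amino acid exporters: UMAMIT25 (AT1G09380) went from 10.7 and 12.8 CPM to 1.78 and 3.66 CPM (-2.21 ± 0.34, adjusted p = 0.00516), and UMAMIT29 (AT4G01430) from 20.6 and 29.3 CPM to 7.96 and 6.26 CPM (-1.79 ± 0.29, adjusted p = 0.00659). Without a Col library the count ranged from 9 to 13 upwards and from 2 to 4 downwards, the latter without Col control 2. Of 58 sugar genes 4 rose and 3 fell, among them TPPI (3 and 5 with upper quartile scaling). SWEET1 (AT1G21460), a sugar exporter, fell from 180 and 183 CPM to 70.5 and 100 CPM (-1.09 ± 0.20, adjusted p = 0.0109), which lost significance on omitting Col hybrid 1 (0.114), and in C24 the fitted change was -2.63, with a difference between the crosses of 1.54 ± 0.29 (adjusted p = 0.0455). Sugar genes called lower numbered 5 omitting Col control 2 and 1 omitting Col hybrid 1.

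Of 55 tested gibberellin, abscisic acid and brassinosteroid genes, taken as 1 list, 10 rose and 4 fell, against 10.4% and 6.38% of all loci. GA20OX2 (AT5G51810), an enzyme of gibberellin synthesis, rose from 78.3 and 70.8 CPM to 169 and 172 CPM (1.19 ± 0.17, adjusted p = 0.00367), and its paralogue GA20OX3 (AT5G07200) fell from 9.53 and 8.92 CPM to 0.613 and 2.01 CPM (-2.90 ± 0.77, adjusted p = 0.0358). GA20OX3 lost significance on omitting Col hybrid 1 (0.16). RGL2 (AT3G03450), a repressor of gibberellin response, rose from 56.2 and 50.8 CPM to 95.7 and 105 CPM (0.91 ± 0.15, adjusted p = 0.0063), which lost significance on omitting Col hybrid 2 (0.0512). In the cytokinin list 5 of 54 tested genes rose and 4 fell (4 and 6 with upper quartile scaling), near the shares of all loci. ARR9 (AT3G57040), a response regulator that dampens cytokinin signalling, fell from 13.5 and 11.6 CPM to 4.10 and 4.02 CPM (-1.62 ± 0.17, adjusted p = 0.00111), and CKX5 (AT1G75450), which degrades cytokinin, rose from 10.8 and 6.74 CPM to 20.8 and 23.2 CPM (1.32 ± 0.30, adjusted p = 0.0202). Both held under every alternative run. Gibberellin, abscisic acid and brassinosteroid calls numbered 5 up and 3 down omitting Col control 1 or Col hybrid 2, and 7 up and 0 down omitting Col hybrid 1, and cytokinin calls numbered 2 up and 1 down omitting Col hybrid 1.

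The title of the series names defence, so lists of defence genes were examined. Of 40 tested salicylate and immune signalling genes 1 rose and 1 fell, and of 38 tested WRKY factors, regulators of defence, 2 rose and 1 fell, shares below those of all loci (10.4% and 6.38%). NPR3 (AT5G45110), a salicylate receptor, fell from 40.9 and 73.1 CPM to 26.3 and 25.9 CPM (-1.12 ± 0.26, adjusted p = 0.0219), but significance was lost on omitting Col control 2 (0.123), Col hybrid 1 (0.125) or Col hybrid 2 (0.0971). ADR1-L1 (AT4G33300, 7.13% not unique), a helper immune receptor, had 23.7 and 20.14 CPM and then 33.3 and 36.2 CPM (adjusted p = 0.0133), but significance was lost on omitting Col control 1 (0.0588), Col hybrid 1 (0.0548) or Col hybrid 2 (0.121). Of the WRKY genes, WRKY11 (AT4G31550) rose from 18.5 and 18.4 CPM to 51.1 and 30.6 CPM (1.16 ± 0.23, adjusted p = 0.0135), which lost significance on omitting Col control 1 (0.059) or Col hybrid 1 (0.0895). Salicylate and immune calls numbered 0 up and 3 down omitting Col control 1, 3 and 0 omitting Col control 2, and 0 and 0 omitting Col hybrid 1, where WRKY calls also numbered 0 and 0. At an unadjusted p below 0.05 the full fit had 5 and 4 salicylate and immune genes and 4 and 4 WRKY genes. The other WRKY factors called in it were WRKY68, which rose, and WRKY33, which fell. WRKY68 was no longer called in the fit of the compared groups only (log2 1.40, edgeR adjusted p = 0.0582) or with DESeq2 (1.44, adjusted p = 0.059). WRKY33 was no longer called in the fit over all 14 libraries (-1.83, edgeR adjusted p = 0.0577). The log2 change of WRKY33 was -0.90 omitting Col control 2, -1.81 omitting Col hybrid 1 and -1.73 omitting Col hybrid 2.

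Jasmonate genes rose at 5 of 41 tested loci and 0 fell by edgeR, where DESeq2 called 5 up and 1 down, 8 and 5 had an unadjusted p below 0.05, and the median log2 change was -0.04. The share upwards was near the 10.4% of all loci. The called members included enzymes of jasmonate synthesis. AOC4 (AT1G13280), an allene oxide cyclase, rose from 24.3 and 20.4 CPM to 52.3 and 47.6 CPM (1.16 ± 0.21, adjusted p = 0.00977), and ACX5 (AT2G35690), an oxidase of its later steps, from 13.3 and 13.6 CPM to 43.9 and 55.9 CPM (1.89 ± 0.22, adjusted p = 0.00193). Both were called under every alternative run, with groups that did not overlap. LOX3 (AT1G17420), a lipoxygenase of the first step, went from 36.2 and 39.1 CPM to 56.0 and 60.6 CPM (adjusted p = 0.0158), but significance was lost on omitting Col control 1 (0.164), Col hybrid 1 (0.101) or Col hybrid 2 (0.196). Without Col control 1 the list had 3 up and 3 down, and without Col hybrid 1 or Col hybrid 2 it had 2 up.

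Of 34 tested glutathione transferases, which conjugate toxic and endogenous compounds, 8 fell and 1 rose, against 6.38% and 10.4% of all loci. Their median log2 change was -0.53. The sum went from 4199 and 4216 CPM to 2145 and 3442 CPM. GSTF14 (AT1G49860) fell from 56.8 and 56.6 CPM to 13.3 and 18.0 CPM (-1.88 ± 0.33, adjusted p = 0.00861), and GSTU5 (AT2G29450) from 22.7 and 31.8 CPM to 11.9 and 14.3 CPM (-1.06 ± 0.19, adjusted p = 0.00859). GSTF8 (AT2G47730), a stress-inducible member, rose from 166 and 168 CPM to 438 and 387 CPM (1.3 ± 0.20, adjusted p = 0.00576). The count downwards was 5 omitting Col control 1, 3 omitting Col control 2, 1 omitting Col hybrid 1 and 6 omitting Col hybrid 2. GSTU5 lost significance on omitting Col control 2 (0.06) or Col hybrid 1 (0.114). Genes of heat shock and chaperones rose at 4 of 32 tested loci and fell at 1, the share upwards being near that of all loci. The list was led by CR88 (AT2G04030), a plastid chaperone, which rose from 87.8 and 93.0 CPM to 210 and 180 CPM (1.11 ± 0.16, adjusted p = 0.00377). CAT1 (AT1G20630), a catalase that breaks down hydrogen peroxide, rose from 115 and 112 CPM to 264 and 341 CPM (1.41 ± 0.23, adjusted p = 0.00608), and CR88 and CAT1 held under every alternative run. Heat shock calls upwards numbered 1 omitting Col control 1 or Col hybrid 1 and 2 omitting Col hybrid 2.

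Among genes of cell death and senescence 4 of 32 tested rose and 6 fell, against 10.4% and 6.38% of all loci. The sum of the list went from 9063 and 12732 CPM to 4924 and 6228 CPM, most of it DELTA-VPE. ENDO2 (AT1G68290), a nuclease of dying cells, rose from 1.79 and 2.91 CPM to 11.9 and 12.9 CPM (2.40 ± 0.28, adjusted p = 0.00187), under every alternative run. SAG20 (AT3G10985) rose from 535 and 648 CPM to 1367 and 1054 CPM (1.03 ± 0.17, adjusted p = 0.00642), and APG8A (AT4G21980), a protein of autophagy, fell from 33.8 and 34.5 CPM to 11.8 and 21.0 CPM (-1.09 ± 0.23, adjusted p = 0.0165). SAG20 lost significance on omitting Col control 1 (0.0725) or Col hybrid 1 (0.0662), and APG8A on omitting Col hybrid 1 (0.137). The count downwards in this list was 3 omitting Col control 2 and 1 omitting Col hybrid 1, and upwards 2 omitting Col control 1 or Col hybrid 1.

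Among lipid transfer proteins, which carry lipids through the wall, 11 of 53 tested rose and 3 fell, against 10.4% and 6.38% of all loci. AT2G10940 rose from 33.6 and 37.7 CPM to 190 and 128 CPM (2.16 ± 0.19, adjusted p = 0.000652) and AT4G15160 from 31.8 and 21.1 CPM to 131 and 122 CPM (2.26 ± 0.20, adjusted p = 0.000579). AT3G29152 fell from 28.1 and 33.3 CPM to 0.613 and 0.236 CPM (-5.98 ± 0.37, adjusted p = 0.000126), with 12 and 8.15 CPM left in the C24 hybrid, and the crosses differed (adjusted p = 0.00717). The groups did not overlap at these 3 loci. Without Col hybrid 1 the list had 7 up and 1 down. The S1 self-incompatibility family, examined after its values were seen, had 2 of 33 tested members higher and 6 lower, with a median log2 change of -1.69, or -1.08 with loci without hybrid reads at their bound. Of the transcription factors, MYB89 (AT5G39700) fell from 8.88 and 7.04 CPM to 0.858 and 0.473 CPM (-3.49 ± 0.50, adjusted p = 0.00392), and AT3G10595, a homeodomain-like factor chosen after its values were seen, from 20.6 and 25.8 CPM to 0.429 and 0.591 CPM (-5.55 ± 0.31, adjusted p = 7.99e-05), against 12.5 and 10.8 CPM and then 31.1 and 22.8 CPM in C24. Both factors differed between the crosses (adjusted p = 0.0152 and 0.000437).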

How the data were processed

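Poly-A RNA of whole seeds was sequenced, and the table holds read counts per locus, deposited by the authors without normalization; BWA and TAIR10 are named in the submitters' processing notes, and the version, the counting and the handling of reads with several matches are not given in the sources used here. Libraries carried no strand mark, per the labels' protocols. All 14 columns were mapped by title, 0 were left unmapped, and only whole loci were used.

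CPM was computed here from the deposited counts. edgeR 4.0.16 (R 4.3.3) fitted the 8 libraries of the 4 groups of A. thaliana and hybrid seeds, which share 1 estimate of the spread, with TMM scaling, filterByExpr and the quasi-likelihood test, and a Benjamini-Hochberg adjusted p below 0.05 was called. The Col effect was tested against the C24 effect, locus by locus, in the same fit. DESeq2 1.42.0, other scalings and filters, other sets of libraries and a replicate block were alternatives. Silique and A. arenosa values come from a scaling over all 14 libraries. On simulated data of 19978 genes made for this comparison, 32 of 50 genes raised 2-fold, 25 of 50 lowered 2-fold and 12 of 19778 unchanged genes were called. The changed genes were drawn only from loci above a minimum mean level, so recovery at low loci was not tested. The spread was taken from the fit and no difference in library make-up was simulated, so the false calls cannot show one.

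Names, products and upstream sequences come from RefSeq's TAIR10.1 annotation, which matched 32835 of 33602 loci. Named loci were the 12 largest changes per direction among called loci that reached 10 CPM and did not overlap, up to 3 called members per direction and list, those with the smallest p in lists of at least 5 tested members, and the 6 most abundant called loci per direction. Others are said to be chosen after their values were seen. Not every locus that met a rule is described. Among those left out, PRXR1, AAC1, HTH and UBQ11 rose. Their calls ended in the fit over all 14 libraries (edgeR adjusted p = 0.232, 0.0795, 0.236 and 0.156). Members, gene lists and tests were chosen with earlier results of these data known. Replicates differed by more than counting noise in all 4 groups (chi-square per degree of freedom 10.6 to 16.1).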

Additional observations from a re-analysis of the deposited data

Results flagged for a closer look

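At 37 of the loci described above, the hybrid effect in Col differed from that in C24 by the edgeR test of the difference itself, with an adjusted p below 0.05. The values below are the log2 effect in Col minus the log2 effect in C24, so a negative value means a lower effect in Col. At 35 of the 37 loci the value was negative. Many of these loci were named because they fell most in the Col hybrid, which favours a negative value, and over all 285 loci called for the difference 200 were negative and 85 positive. The exceptions were AIR1 at 3.81 and SWEET1 at 1.54.

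ARF13 was without reads in both Col hybrid libraries, so its fitted difference of -9.08 is an extrapolation. The sign of that value can be read, but not its size. Among the other loci that fell in the Col hybrid, the difference was -9.50 at AT4G32380, -7.89 at AT1G56233, -6.47 at GGT2, -6.32 at AT5G40680 and -3.51 at AT4G32110. It was -6.76 at AT3G10595, -4.86 at MYB89, -4.69 at AT5G04047 and -4.01 at AT3G29152. For small secreted peptides it was -6.35 at LCR35, -3.18 at LCR36, -4.03 at LCR22, -3.18 at LCR21 and -4.79 at SCRL9. In the stretch with ECA1-related genes it was -4.90 at AT3G01325, -3.48 at AT3G01322 and -1.51 at AT3G01328. For DUF239 loci it was -7.25 at AT5G46810, -6.78 at AT5G25410, -3.92 at AT4G17505, -3.86 at AT4G15050 and -3.37 at AT2G38255. In the expansin cluster it was -5.02 at EXPA21, -2.78 at EXPA23 and -2.13 at EXPA25, of which EXPA21 alone was called between the Col groups.

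Some loci rose in the Col hybrid with a lower effect than in the C24 hybrid. The difference was -3.20 at sks8, -3.37 at AT5G58820, -2.32 at AT4G39640, -1.85 at AT1G61688, -1.83 at SBT5.4, -1.78 at AT3G17152, -1.70 at AT4G23350, -1.61 at AT5G45650 and -1.14 at PRP4.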

How the results depend on the processing

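The count of 3454 called loci was 2236 when the Col groups were fitted alone and 1056 when all 14 libraries were fitted. Leaving out Col libraries, it ranged from 1275 to 3370, with 1357 without replicate 1 of both controls. The count with at least a 2-fold change, 1477, was 2309 with no filter on low counts and 832 over all 14 libraries, and it ranged from 1123 to 2379 without Col libraries. The 285 loci that differed between the crosses were 614 with DESeq2 and, in runs chosen after seeing the data, 1052 with no filter and 33 over all 14 libraries. They were 153 without replicate 1 of both controls, and between 190 and 542 without a library of either cross. The cause of these shifts was not tested. Of the 257 called loci examined by name, calls ended at 14 with RLE scaling, 23 with upper quartile scaling, 21 with no filter, 20 with DESeq2, 125 over all 14 libraries and between 50 and 107 without 1 Col library. No sign reversed in these runs.

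The labels do not say that a replicate number marks a shared batch, and with 2 libraries a group the numbers were not taken to pair samples. Same-numbered deviations correlated at 0.001 between the Col groups, at 0.249 between the Col and C24 controls, at 0.165 between Col control and C24 hybrid, and from -0.101 to 0.107 for the other group pairs. With the numbers as a replicate block 3661 loci were called, 1698 of them at least 2-fold, 344 differed between the crosses, and 4 of the 257 calls ended.

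With 2 libraries a group and a seed coat, endosperm and embryo in each sample, the depth of 8931520 reads in Col hybrid 2 and the unmatched make-up of the columns limit what can be read from low loci.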
